A study of Mus musculus with 4 samples.

Results

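Endothelial cells, fibroblasts and macrophages of the lung were set beside the same 3 classes of the synovium in mice without arthritis. The comparison used the TNF- lung library and the TNF- synovium library, which are 2 of the 4 libraries of the series. A barcode (a droplet called as a cell) was kept with at least 500 UMIs, the unique molecular identifiers that count captured transcripts, and at most 20% of UMIs from mitochondrial genes. Endothelium was taken as kept barcodes with at least 2 UMIs of Cdh5 and Pecam1 and none of Ptprc. Fibroblasts had at least 10 UMIs of Col1a1, Col1a2, Col3a1 and Dcn and none of Ptprc or Cdh5. Macrophages had at least 2 UMIs of Csf1r and none of Cdh5. These gates held 8218 of the 14980 kept barcodes of the 2 libraries, and the 4 libraries together had 29563 kept barcodes. The lung gave 2201 endothelial, 400 fibroblast and 847 macrophage barcodes. The synovium gave 1402, 3659 and 410.

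The TNF- mice were wildtype littermates of a TNF transgenic line on the C57BL/6 background, female and 4 months of age. Viable cells had been sorted after lysis of red blood cells and captured by droplet-based 3' sequencing. Each group was 1 library from pooled mice, 3 to 5 for lung and 5 to 10 for synovium. Lung had been digested with Collagenase A, Elastase and Dispase II, and synovium with type II collagenase. Tissue, digestion, pool and library therefore cannot be told apart, and no p-value is given. The TNF+ lung and TNF+ synovium libraries, from mice of the same line and age that carry the human TNF transgene, share no library with this pair, and their values are given beside it.

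Lung capillaries form the gas exchange surface, and their endothelium carries specialised cells called aerocytes beside general capillary cells. Lung fibroblasts surround alveoli, airways and vessels, while synovial fibroblasts line the joint cavity and build the loose tissue beneath the lining. Alveolar macrophages live on the airspace surface and clear surfactant lipid, whereas synovial macrophages sit within connective tissue. Cells of the mesenchyme also keep, as adults, the transcription factors that set their position in the embryo.

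The kept TNF- lung barcodes held 95523525 UMIs and those of the TNF- synovium 90135854, with medians of 8109 and 13057 UMIs per barcode. UMIs were summed within each class and library and expressed as CPM, the UMIs of a gene in every 1000000 UMIs of that class. A log2 ratio is lung over synovium throughout, so positive values are higher in lung. Square brackets hold 95% intervals, which cover counting error only and not the spread between mice. A gene was measured in a class when the pair of libraries held at least 50 of its UMIs, and it was called when its ratio passed 2-fold. Where a library had no UMI of a gene, the ratio was set against a floor of 3 UMIs per library and is a lower bound.

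The class labels were checked against markers that the gates did not use. Macrophage and fibroblast gates held their own markers in each tissue. Summed over 12 fibroblast markers, the fibroblast gate reached 15630 CPM in lung and 24878 CPM in synovium. Summed over 12 macrophage markers, the macrophage gate reached 15972 CPM and 11483 CPM. That gate also took in barcodes with monocyte genes. In 379 lung and 150 synovial barcodes there were at least 2 UMIs of Ly6c2 and Plac8 and none of C1qa, C1qb or C1qc. At least 5 UMIs of these C1q genes were found in 84 and 91 barcodes. Macrophages below therefore means all barcodes of the Csf1r gate, whose sub-types may differ between tissues. The endothelial gate of the synovium went against its label. Summed over 10 endothelial markers, it reached 9688 CPM in lung but 1896 CPM in synovium, where the fibroblast markers summed to 18858 CPM.

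Of the 1402 synovial barcodes in the endothelial gate, 645 also passed the fibroblast gate, a share of 46.0% [43.4, 48.7] that held 69.4% of the UMIs. In lung this was 12 of 2201, or 0.545%, and in the TNF+ synovium 28 of 674, or 4.15% [2.78, 5.95]. These 645 barcodes had a mean of 6.22 Pecam1 UMIs, and the fibroblast gate allows them no Cdh5. Pecam1, an adhesion molecule of endothelium and leukocytes, stood at 355 CPM in them. Kdr, the main VEGF receptor, was at 2.83 CPM, Flt1, another VEGF receptor, at 2.30 CPM and Cldn5, an endothelial tight junction protein, at 0.177 CPM. Dcn, a collagen-binding proteoglycan, was at 13392 CPM and Pdgfra, a receptor typical of fibroblasts, at 554 CPM. The 3014 synovial fibroblast barcodes with fewer than 2 Pecam1 UMIs had nearly those levels, with Dcn at 12855 CPM, Pdgfra at 514 CPM and Pecam1 at 7.29 CPM.

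Endothelium is therefore described on a stricter gate, with fewer than 10 UMIs of the 4 collagen-gate genes and none of Csf1r or Epcam. It held 2069 lung and 663 synovial barcodes, with medians of 6215 and 4670 UMIs. Its 10 endothelial markers summed to 10944 CPM in lung and 6955 CPM in synovium, and none was at 0. On that gate, synovial Kdr stood at 707 CPM, Cdh5, the adherens junction cadherin, at 1144 CPM and Dcn at 171 CPM. Values under the original gate are given where they differ. Counts of list members past 2-fold are to be read beside the shares of all measured genes. In lung and synovium these were 25.3% and 11.6% in endothelium under the stricter gate, 23.9% and 15% in fibroblasts and 28.5% and 9.23% in macrophages.

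**Figure D1:**
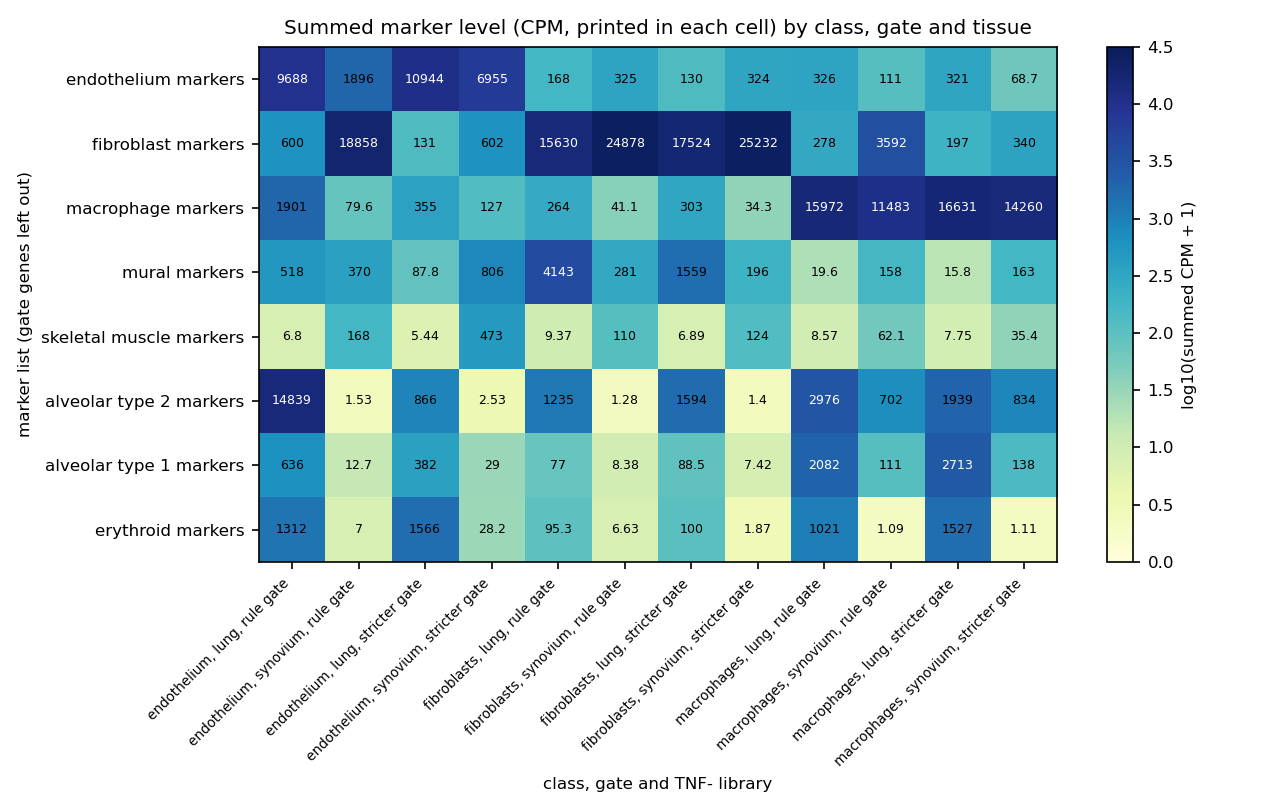
Summed level in CPM of 8 marker lists (rows) in each class, TNF- library and gate (columns), with colour on a log10 scale. Under the rule gate the synovial endothelium held 18858 CPM of fibroblast markers against 1896 CPM of endothelial markers, and under the stricter gate 602 against 6955 CPM.

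Markers of neighbouring cell types moved with tissue in every class. The 10 alveolar type 2 markers summed to 866 CPM in lung endothelium under the stricter gate and 14839 CPM under the original gate. The synovial sums were 2.53 and 1.53 CPM, and 8 of the 10 markers were at 0 in the stricter gate. Sftpc, surfactant protein C and the defining marker of that list, averaged 8.42 UMIs in lung T cells, a class that should lack it. T cells were barcodes with at least 2 UMIs of Cd3d, Cd3e and Cd3g, none of Csf1r or Cdh5 and fewer than 10 collagen-gate UMIs. The 5 erythroid markers summed to 1566 CPM in lung endothelium and 28.2 CPM in synovial endothelium. In the other direction, the 10 skeletal muscle markers summed to 473 CPM in synovial and 5.44 CPM in lung endothelium, with 3 of them at 0 in lung. Mural markers, from vessel-wall cells, summed to 806 CPM in synovial and 87.8 CPM in lung endothelium. Among fibroblasts they summed to 4143 CPM in lung and 281 CPM in synovium. The part of these cells in the results below was not tested.

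In endothelium, genes of the lung capillary lists were past 2-fold higher in lung, among them Hpgd, Foxf1 and Tmem100, and Timp4, Mt2 and Fabp4 were among the firmest on the synovial side. Under the stricter gate, 3091 of 12238 measured genes (25.3%) were past 2-fold higher in lung and 1417 (11.6%) higher in synovium. The median log2 ratio of all measured genes was 0.48. The original gate gave 3724 of 14660 genes (25.4%) higher in lung and 2774 (18.9%) higher in synovium, with a median of 0.40. Centring that median on 0 turned the split to 2286 and 3478, so the balance of calls depended on the scaling. The 12 genes with the firmest lung ratios under the original gate were led by alveolar type 2 and airway secretory genes, among them Sftpc, Scgb1a1, Sftpa1 and Slc34a2. The 12 of the synovium were led by Myoc, Thbs4 and Smoc2, which are also among the genes described for fibroblasts.

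All 13 measured members of the list of lung endothelial transcription factors and signals were past 2-fold higher in lung, with a median log2 ratio of 5.07. Hpgd, the enzyme that degrades prostaglandins, was at 2672 CPM in lung (42217 UMIs) and 2.53 CPM in synovium (9 UMIs). Its log2 ratio was 10.04 [9.12, 11.17]. Foxf1, a transcription factor of lung mesenchyme and endothelium, was at 478 CPM in lung and 2.25 CPM in synovium. Its log2 ratio was 7.73 [6.75, 8.94]. Fendrr, a long noncoding RNA gene beside Foxf1, followed it, at 465 and 0.563 CPM. Tmem100, a membrane protein of the BMP pathway in lung vessels, was at 2196 CPM and 12.7 CPM, a log2 ratio of 7.44 [7.02, 7.89]. Sema3c, a secreted guidance factor, was at 2058 and 25.1 CPM, and Calcrl, the receptor for adrenomedullin, at 4291 and 128 CPM. Epas1, the hypoxia-inducible factor HIF-2 alpha, was abundant on each side, at 3054 CPM in lung and 840 CPM in synovium. Its log2 ratio was 1.86 [1.81, 1.92] in this pair and 0.25 in the TNF+ pair.

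A pair of receptor genes had no UMI in synovial endothelium. Glp1r, the receptor for glucagon-like peptide 1, was at 405 CPM in lung, at least 479-fold higher. Adrb1, the beta-1 adrenergic receptor, was at 321 CPM in lung, at least 380-fold higher. The sodium channel gene Scn7a was at 1088 CPM in lung and 4.51 CPM in synovium, but under the original gate the synovial level was 142 CPM.

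Genes from the aerocyte side of the lung capillary were past 2-fold higher in lung for 8 of 9 measured members, with none higher in synovium. Prx, periaxin, was at 279 and 15.5 CPM. Emp2, an epithelial membrane protein family member, was at 966 and 52.1 CPM, and Apln, the ligand apelin, at 57.3 and 6.20 CPM. Car4, a membrane carbonic anhydrase, showed a smaller difference, at 455 and 123 CPM (log2 ratio 1.89 [1.75, 2.03]). Ednrb, the endothelin B receptor, was at 246 and 115 CPM. The exception was Kdr, at 670 CPM in lung and 707 CPM in synovium, a log2 ratio of -0.08 [-0.14, -0.01]. Under the original gate the synovial Kdr level was 167 CPM and the ratio 1.85, so its call rested on the gate.

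The list of capillary and lipid uptake genes was divided. Fabp4, which binds fatty acids in the cytoplasm of capillary cells, was at 33.0 CPM in lung and 6187 CPM in synovium. Its log2 ratio was -7.55 [-7.68, -7.43]. Aqp7, a glycerol channel, was at 0.443 CPM in lung and 113 CPM in synovium. Lpl, lipoprotein lipase, was at 153 and 573 CPM, and Rgcc, a cell cycle regulator of capillaries, at 23.3 and 999 CPM. Other members were within 2-fold or higher in lung. Gpihbp1, which anchors lipoprotein lipase on capillaries, was at 827 and 969 CPM, and Cd36, a fatty acid translocase, at 2281 and 1650 CPM. Kit, a receptor tyrosine kinase, was at 406 and 8.73 CPM, and Plvap, the diaphragm protein of fenestrae, at 1049 and 109 CPM. Of the 14 list members, 7 were past 2-fold higher in synovium and 3 higher in lung, against 5 and 6 under the original gate.

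The 12 synovial genes with the firmest ratio under the stricter gate included 3 of skeletal muscle (Acta1, Tnnt3 and Tnnc2) and the lining gene Prg4. Acta1, skeletal alpha-actin, was at 0.127 CPM in lung and 115 CPM in synovium, and a synovial T cell averaged 0.42 of its UMIs. The 12 on the lung side included the epithelial genes Sftpc and Scgb1a1. Timp4, an inhibitor of matrix metalloproteinases, was at 0.949 CPM in lung and 807 CPM in synovium, a log2 ratio of -9.73 [-10.57, -9.01]. Slc28a2, a nucleoside transporter, was at 0.696 and 179 CPM. Kcna5, a voltage-gated potassium channel, had no UMI in lung and was at 72.1 CPM in synovium, at least 380-fold higher. Chodl, a lectin-like membrane protein, and Calcr, the calcitonin receptor, also had none in lung, at 55.2 and 57.2 CPM in synovium. Among synovial barcodes of the endothelial gate with at least 1 Cdh5 UMI, chosen after the data were seen, Calcr was at 2.24 CPM (10 UMIs, against 203 in the stricter gate) and Chodl at 28.5 CPM. Most Calcr UMIs therefore came from barcodes with no Cdh5. In the TNF+ synovium Chodl was at 0.876 CPM (5 UMIs) and Calcr at 0.175 CPM (1 UMI).

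Genes of the BMP pathway were not all on the same side. Bmpr2, the type II BMP receptor, was at 2099 CPM in lung and 360 CPM in synovium. Acvrl1, the endothelial type I receptor ALK1, was at 1148 and 136 CPM, and Smad6, an inhibitor of the pathway, at 765 and 33.8 CPM. Id1, a target of the pathway, lay the other way, at 424 and 965 CPM (log2 ratio -1.19 [-1.24, -1.13]). Eng, the co-receptor endoglin, was within 2-fold, at 1196 and 643 CPM. In all, 5 of the 13 measured members of the list were past 2-fold higher in lung, and only 1, Id1, higher in synovium. Over all genes the shares were 25.3% and 11.6%.

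Vasoactive genes were past 2-fold higher in lung for 8 of 12 measured members and higher in synovium for 3. Ace, which makes angiotensin II, was at 930 and 79.4 CPM. Npr3, the clearance receptor for natriuretic peptides, was at 247 and 6.76 CPM, and Edn1, the vasoconstrictor endothelin 1, at 267 and 60.8 CPM. Nos3, endothelial nitric oxide synthase, was higher in synovium, at 47.2 and 149 CPM. Adm, adrenomedullin, was also higher there, at 0.949 and 45.6 CPM. Its receptor gene Calcrl, given above, was higher in lung. In the TNF+ pair 3 of the 8 lung calls of the vasoactive list were past 2-fold the same way, without Npr3 and Edn1. There 1 lung call passed 2-fold the other way, and all 3 synovial calls kept their side.

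Angiogenic receptors and basement membrane genes leaned to the synovium under the stricter gate, with 6 of 17 past 2-fold higher there and 2 higher in lung. Flt1 was at 1160 and 2700 CPM, and Hspg2, which encodes perlecan, at 12.2 and 451 CPM. Tek, the angiopoietin receptor, was higher in lung, at 1045 and 270 CPM. Under the original gate the counts were 7 and 7. Arterial genes were past 2-fold higher in lung for 5 and in synovium for 2 of 14 members, against 10 and 2 under the original gate. Of 11 measured venous and adhesion genes, 3 were higher in lung and 1 in synovium. Of 8 lymphatic genes, 1 was higher in lung and 2 in synovium. Over all genes under the stricter gate, 25.3% were higher in lung and 11.6% in synovium.

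**Figure D2:**
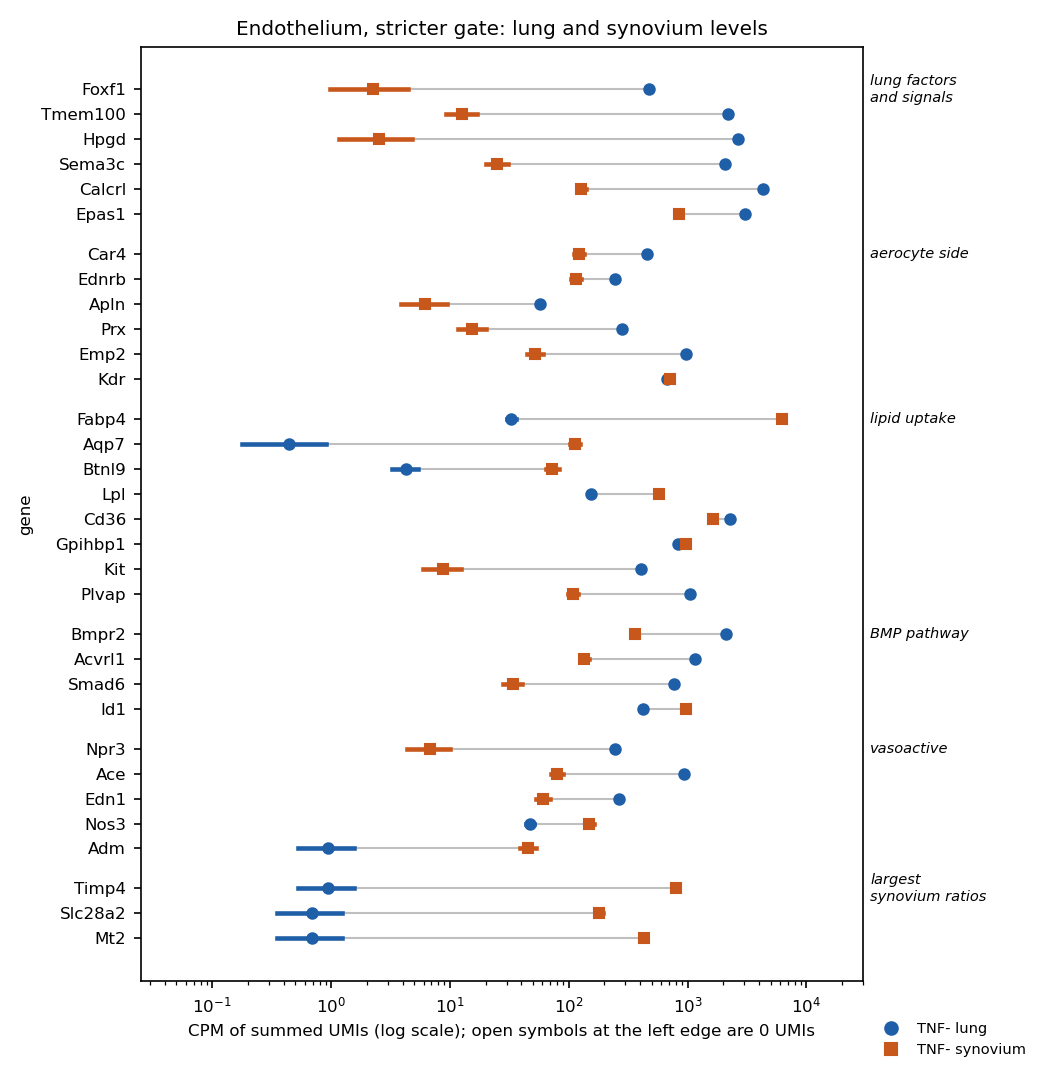
CPM on a log scale of 32 endothelial genes under the stricter gate, with lung as circles, synovium as squares and 95% counting intervals as bars. Hpgd lay at 2672 CPM in lung against 2.53 CPM in synovium, while Fabp4 lay at 33.0 against 6187 CPM and Kdr at 670 against 707 CPM.

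In fibroblasts the lung side was marked by genes of the alveolar fibroblast and the synovial side by secreted matrix proteins of tendon, cartilage and lining. Here 3578 of 14980 measured genes (23.9%) were past 2-fold higher in lung and 2250 (15%) higher in synovium. The median log2 ratio was 0.44, and centred on it the counts were 2009 and 3038. Pdgfra, present in most fibroblasts, was at 676 CPM in lung and 522 CPM in synovium.

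Of the 20 alveolar fibroblast genes, 18 were past 2-fold higher in lung and none higher in synovium, with a median log2 ratio of 4.51. Tcf21, a transcription factor of lung fibroblasts that store lipid, had 2307 UMIs in lung (360 CPM) and none in synovium, at least 6861-fold higher. Npnt, a basement membrane ligand of an integrin that the list also holds, was at 1242 CPM in lung and 0.525 CPM in synovium. Its log2 ratio was 11.21 [10.69, 11.78]. Itga8, that integrin chain, was at 906 and 19.97 CPM. Inmt, an amine methyltransferase, was at 2560 and 116 CPM, and Fgf10, a growth factor for epithelium, at 172 and 14.6 CPM. Wnt2, a ligand of lung mesenchyme, was at 82.1 and 13.9 CPM. Lrat, which makes retinyl esters, was outside the list and had no synovial UMI, at 172 CPM in lung and at least 3277-fold higher.

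Contractile and mesothelial genes of the lung sum were lower under a stricter gate. Actc1, the cardiac alpha-actin, was at 242 CPM in lung under the original gate and 10.3 CPM under the stricter fibroblast gate, which held 299 lung and 2470 synovial barcodes. That gate allowed no Pecam1 or Csf1r UMI and asked for at least 2 UMIs of Pdgfra, Lum, Mfap5 and Fbln1. Msln, the mesothelial protein mesothelin, was at 146 CPM under the original and 66.8 CPM under the stricter gate. Tcf21 stood at 360 and 407 CPM under those gates. With the stricter gate 3432 of 13617 genes (25.2%) were past 2-fold higher in lung and 1775 (13%) higher in synovium.

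Synovial fibroblasts held secreted proteins that were at or near 0 in lung. Myoc, myocilin, had 1 UMI in lung (0.156 CPM) and 72475 in synovium (1268 CPM), a log2 ratio of -12.99 [-18.29, -10.51]. Thbs4, a thrombospondin of tendon, had none in lung and stood at 545 CPM in synovium, at least 1164-fold higher. Comp, cartilage oligomeric matrix protein, was at 0.156 and 98.4 CPM. Prg4, the joint lubricant lubricin, was at 0.937 CPM in lung and 242 CPM in synovium, a log2 ratio of -8.02 [-9.46, -6.89]. In the TNF+ pair Prg4 was at 3.41 and 3230 CPM. The TNF+ lung held only 44 fibroblast barcodes, so its values carry wide counting error.

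Of 16 measured tendon, cartilage and enthesis genes, 13 were past 2-fold higher in synovium. Fmod, fibromodulin, was at 26.9 and 443 CPM, and Tnmd, the tendon membrane protein tenomodulin, at 1.72 and 51.0 CPM. Cilp, a cartilage matrix protein, was at 32.8 and 293 CPM. The 1 member higher in lung was Scx, a tendon transcription factor, at 17.5 and 8.58 CPM. In the TNF+ pair Scx was at 7.96 and 40.6 CPM. Genes of the synovial lining were divided, with 9 of 16 higher in synovium and 6 higher in lung. Cd55, a complement regulator of lining cells, was at 33.0 and 247 CPM, while the adhesion molecule Vcam1 was at 306 and 36.0 CPM. Of the lining calls measured in the TNF+ pair, 6 of 8 synovial and 2 of 4 lung calls were past 2-fold the same way. Cd55 and Vcam1 were not among them, and no call passed 2-fold the other way.

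Adventitial and universal fibroblast genes were past 2-fold higher in synovium for 12 of 16 and in lung for 1. Pi16, a peptidase inhibitor that marks adventitial cells, was at 136 and 501 CPM, Cd34, a stem cell antigen, at 156 and 634 CPM, and Clec3b, tetranectin, at 598 and 1549 CPM. In the TNF+ pair 7 of the 12 synovial calls were past 2-fold the same way, without Pi16, Cd34 and Clec3b. There 1 synovial call passed 2-fold the other way, and the 1 lung call kept its side. To compare like with like, barcodes with at least 2 UMIs of Pi16 and Dpp4 were taken alone, 43 in lung and 1555 in synovium. Within them 2787 of 12732 genes (21.9%) were past 2-fold higher in lung and 1376 (10.8%) higher in synovium. Clec3b was then at 1713 and 1911 CPM. Tcf21 stayed at 147 CPM in lung and 0 UMIs in synovium, and Myoc at 0 UMIs in lung and 1295 CPM in synovium. Npnt was at 121 and 0.795 CPM, below its level in all lung fibroblasts.

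Transcription factors of position separated the tissues. Tbx4, which acts in lung and hindlimb buds, was at 259 CPM in lung and 7.44 CPM in synovium, a log2 ratio of 5.12 [4.97, 5.28]. Tbx2 was at 300 and 7.18 CPM, and Tbx5, a factor of heart, lung and forelimb, at 104 and 22.4 CPM. Meis1, a partner of Hox proteins, was at 432 and 57.9 CPM. On the synovial side, Shox2, a factor of limb growth, was at 0.312 and 69.3 CPM, and Twist1, a mesenchymal factor, at 6.87 and 82.1 CPM. En1 and Lmx1b, factors of the ventral and dorsal limb, had no UMI in lung and stood at 22.0 and 9.50 CPM in synovium. Pitx1, which marks the hindlimb, was at 0.469 and 5.41 CPM. Prrx1, a factor shared by mesenchyme of many sites, was within 2-fold at 144 and 214 CPM. Of 24 measured factors, 11 were past 2-fold higher in lung and 9 higher in synovium.

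The Hox genes, which are arranged in 4 clusters and mark position along the body and limb axes, divided by cluster and by place in the cluster. All 23 measured of 39 passed 2-fold, 11 higher in lung and 12 higher in synovium. In the Hoxa cluster, paralogs 2, 3, 4, 5 and 7 were higher in lung and 9 and 10 in synovium. Hoxa5 (chromosome 6, 52201754 to 52204587, GRCm38) was at 79.2 CPM in lung and 5.20 CPM in synovium. Hoxa9 (52223100 to 52231089) and Hoxa10 (52231197 to 52240854), further along the same cluster, were at 0.312 and 0 CPM in lung and 9.78 and 14.4 CPM in synovium. The 6 measured Hoxb genes, paralogs 2 to 7, were all higher in lung. Hoxb5 had the highest ratio among them, at 43.4 and 0.175 CPM (log2 ratio 7.95 [7.05, 9.03]).

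The 7 measured Hoxc genes were all higher in synovium. Hoxc10 (chromosome 15, 102966796 to 102971893) had 2494 UMIs in synovium (43.7 CPM) and none in lung, at least 93.2-fold higher. The annotated span of Hoxc5 overlaps those of Hoxc6, Hoxc8, Hoxc9 and Hoxc10 on the same strand, and that of Hoxa3 overlaps Hoxa4 and Hoxa5, so the split of UMIs among these genes is uncertain. Summed, Hoxc paralogs 9 to 13 held 4253 UMIs in synovial fibroblasts and 0 in lung fibroblasts. Hoxb paralogs 1 to 8 summed to 255 CPM in lung and 9.92 CPM in synovium. In the TNF+ libraries Hoxb 1 to 8 summed to 170 and 0.765 CPM, and Hoxc 9 to 13 to 0 and 41.5 CPM. The Pi16 and Dpp4 barcodes held the same sides, with Hoxa5 at 58.5 and 4.26 CPM and Hoxc10 at 0 and 40.0 CPM.

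**Figure D3:**
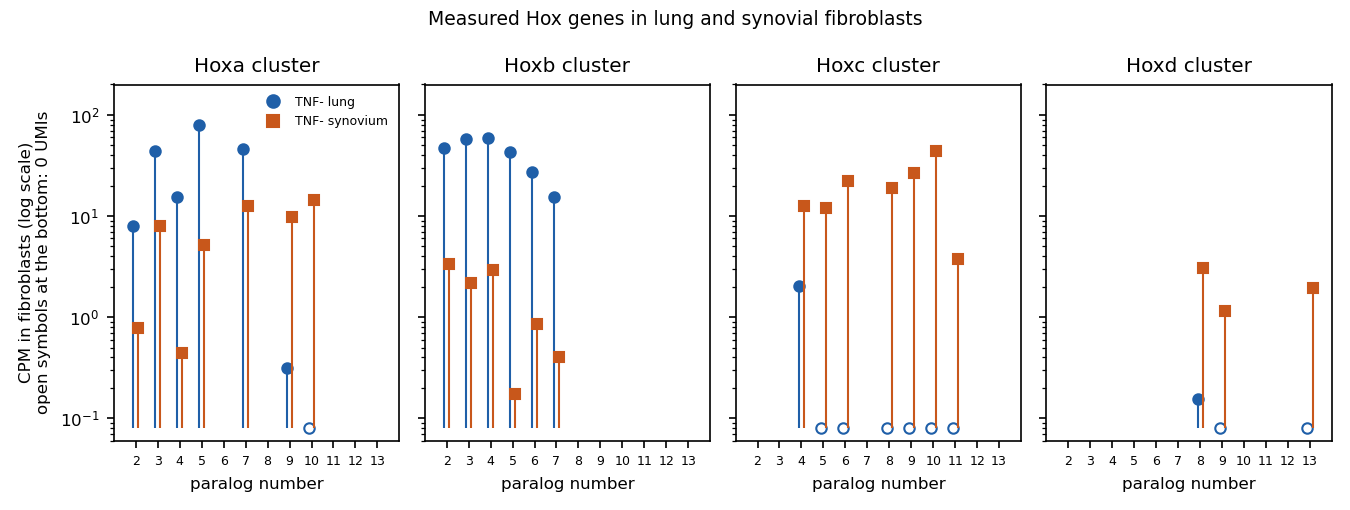
CPM on a log scale of the 23 measured Hox genes in fibroblasts by cluster and paralog number, with lung as circles and synovium as squares, and open symbols for 0 UMIs. The 6 Hoxb genes and the Hoxa genes up to paralog 7 lay higher in lung, and Hoxa9, Hoxa10 and the Hoxc and Hoxd genes higher in synovium.

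Matrix genes lay on both sides. Eln, elastin, was at 1485 CPM in lung and 177 CPM in synovium, and Mfap4, an elastic fibre protein, at 1355 and 46.9 CPM. Col13a1, a transmembrane collagen, was at 327 and 4.27 CPM. Basement membrane Col4a1 was at 354 and 1087 CPM, and Col15a1 at 74.2 and 455 CPM. Of 24 collagens, 3 were past 2-fold higher in lung and 9 in synovium, and of 25 elastic fibre and basement membrane genes, 6 and 5. Over all genes the shares were 23.9% and 15%. The 5 included Fbn1, an elastic fibre gene. In the TNF+ pair 2 of 3 lung and 5 of 9 synovial collagen calls were past 2-fold the same way, without Col4a1 and Col15a1. In the elastic fibre and basement membrane list 4 of 6 lung and 1 of 5 synovial calls were. Lum, the proteoglycan lumican, was at 106 and 1137 CPM, while Ogn, osteoglycin, was even at 1214 and 1184 CPM. Of 12 small proteoglycan genes, 3 were higher in lung and 4 in synovium.

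Secreted regulators followed. Of 12 measured Wnt and BMP antagonists, 3 were past 2-fold higher in lung and 4 in synovium, beside 23.9% and 15% of all genes. Dkk2 and Dkk3, of the same family, lay on opposite sides, Dkk2 at 20.8 and 166 CPM and Dkk3 at 173 and 7.33 CPM. Among 15 complement genes, 7 were higher in lung and 1 in synovium. C7, a component of the membrane attack complex, was at 631 and 7.40 CPM. C3, the central component, was within 2-fold at 890 and 1266 CPM. Saa3, an acute-phase protein, was at 461 CPM in TNF- lung and 0.910 CPM in TNF- synovium. In the TNF+ pair it was at 1241 and 1864 CPM. Its log2 ratio of 8.98 in the TNF- pair was 1.89 without the 5% of barcodes with most UMIs.

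The macrophage gate also held barcodes with monocyte genes, as given above. In it, genes of the alveolar macrophage list were higher in lung, and Retnla, MHC class II and chemokine genes higher in synovium. Of 12986 measured genes, 3698 (28.5%) were past 2-fold higher in lung and 1198 (9.23%) higher in synovium. The median log2 ratio was 0.52, and centred on it the counts were 1864 and 1933. In synovium 62 of the 410 barcodes, 15.1% [11.8, 19.0], also had at least 10 collagen-gate UMIs, against 6 of 847 in lung. A stricter gate without those, with fewer than 2 Pecam1 UMIs and without neutrophil or lymphocyte markers, held 554 lung and 282 synovial barcodes. It gave 3933 of 11564 genes (34%) higher in lung and 686 (5.93%) higher in synovium.

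Genes typical of other cells were among the 12 firmest ratios on each side. In lung they included Sftpc, Scgb1a1, Sftpa1 and Sftpb of secretory epithelium, Ager and Aqp5 of alveolar type 1 cells and the globin Hbb-bs. In synovium they included Thbs4, Myoc, Smoc2, Lum and Cilp, which fibroblasts express, and Rgs5 of mural cells. Sftpc was at 1992 CPM in lung macrophages with no synovial UMI, and Myoc at 0.0649 CPM in lung and 145 CPM in synovium. Under the stricter gate the lung 12 still held Sftpc, Scgb1a1, Ager and Hbb-bs and the synovial 12 Rgs5, beside Retnla, Cxcl1 and Il6. Cxcl1 is not particular to macrophages. Under the original gates it was at 142 CPM in synovial macrophages and 566 CPM in synovial fibroblasts. The part of other cells in these ratios was not tested.

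Alveolar macrophage genes were past 2-fold higher in lung for 21 of 22 measured members, with a median log2 ratio of 4.51. Chil3, a chitinase-like secreted protein, was at 5137 CPM in lung and 82.4 CPM in synovium, a log2 ratio of 5.96 [5.85, 6.07]. Ear1, an eosinophil-type ribonuclease with close copies in the genome, was at 292 and 0.121 CPM. Krt79, a keratin of alveolar macrophages, was at 210 CPM in lung with no synovial UMI, at least 577-fold higher. Plet1, a surface protein, was at 477 and 0.607 CPM, and Cidec, a lipid droplet protein, at 134 and 0.243 CPM. Siglecf, the sialic acid receptor used to sort these cells, was at 63.8 and 1.46 CPM. Pparg, the nuclear receptor on which alveolar macrophages depend, was shared more, at 353 and 150 CPM. Kcnip4, a potassium channel interacting protein outside that list, was at 2320 and 3.52 CPM.

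Lipid and lysosome genes were past 2-fold higher in lung for 11 of 20 members and higher in synovium for none. Ctsd, a lysosomal protease, was at 1738 and 158 CPM, and Plin2, which coats lipid droplets, at 582 and 109 CPM. Lpl was at 1001 and 304 CPM. Apoe, a lipid carrier, was within 2-fold at 1394 and 984 CPM. Ctsk, a collagen-degrading protease, was at 227 and 19.2 CPM here but at 217 and 1842 CPM in the TNF+ pair. Under the stricter gate synovial Ctsk was at 1.66 CPM. The study had kept cells with 200 to 5000 detected genes, and under that limit these lung values were smaller. The log2 ratio of Chil3 was then 3.74 in place of 5.96, that of Ctsd 1.75 in place of 3.46 and that of Lpl -0.19 in place of 1.72.

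Retnla, a secreted protein of alternatively activated macrophages, was at 51.0 CPM in lung and 2423 CPM in synovium, a log2 ratio of -5.57 [-5.68, -5.47]. Cd209a, a C-type lectin, was at 75.5 and 296 CPM, Clec10a, another lectin, at 18.6 and 78.6 CPM, and Mgl2, a close relative of Clec10a, at 141 and 340 CPM. Of 10 measured genes of that list, 7 were past 2-fold higher in synovium and 3 higher in lung. In the TNF+ pair 1 of those 7 remained higher in synovium and 3 passed 2-fold the other way. Synovial Retnla was at 64.0 CPM and lung Retnla at 5.51 CPM in that pair.

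MHC class II and dendritic genes were past 2-fold higher in synovium for 8 of 14 and in lung for 2. Cd74, the invariant chain, was at 4454 and 10571 CPM, H2-Ab1 at 1360 and 3922 CPM and H2-Aa, the alpha chain that pairs with it, at 1529 and 3477 CPM. Among barcodes with at least 5 C1q UMIs, 84 in lung and 91 in synovium, the order was not kept. There H2-Ab1 was at 5353 and 4652 CPM, a log2 ratio of 0.20, and Cd74 had a ratio of 0.47. In these C1q barcodes 1429 of 7107 genes (20.1%) were higher in lung and 605 (8.51%) in synovium. Retnla was still higher in synovium, at 554 and 5985 CPM, and Ctsd in lung, at 740 and 221 CPM. In the TNF+ pair H2-Ab1 was at 1507 and 1538 CPM in all macrophages.

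Chemokines and cytokines were past 2-fold higher in synovium for 10 of 23 and in lung for 3. Cxcl2, which draws neutrophils, was at 58.4 and 1183 CPM, a log2 ratio of -4.34 [-4.44, -4.24]. Il1b, interleukin 1 beta, was at 169 and 990 CPM, and Ccl2, which draws monocytes, at 20.3 and 323 CPM. Tnf itself was within 2-fold at 83.5 and 101 CPM. Vegfa, the vascular growth factor, was higher in lung at 256 and 36.0 CPM. Cxcl2 stayed higher in synovium among the C1q barcodes, at 150 and 4227 CPM. In the TNF+ pair 8 of the 10 chemokine calls were past 2-fold the same way, with Cxcl2 at 147 and 8387 CPM.

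Other macrophage lists were less one-sided. Over all genes, 28.5% were higher in lung and 9.23% in synovium. C1qa, a chain of the complement component C1q, was at 327 and 332 CPM, and of 11 complement genes 1 was higher in lung and 2 in synovium. Of 22 resident macrophage genes, 5 were higher in lung and 6 in synovium. Among these Lyve1, a hyaluronan receptor, was at 10.4 and 40.7 CPM and Cd163, the haemoglobin scavenger receptor, at 18.9 and 76.9 CPM, while Cbr2, a carbonyl reductase, was at 87.0 and 22.5 CPM. The Cbr2 ratio of 1.95 was 0.93 without the 5% of barcodes with most UMIs. Of 11 classical monocyte genes, 2 were higher in each tissue. Thbs1, thrombospondin 1, was at 8.51 and 372 CPM. Nonclassical monocyte genes were higher in lung for 6 of 15, with Cd300e, a surface receptor, at 82.7 and 28.0 CPM.

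**Figure D4:**
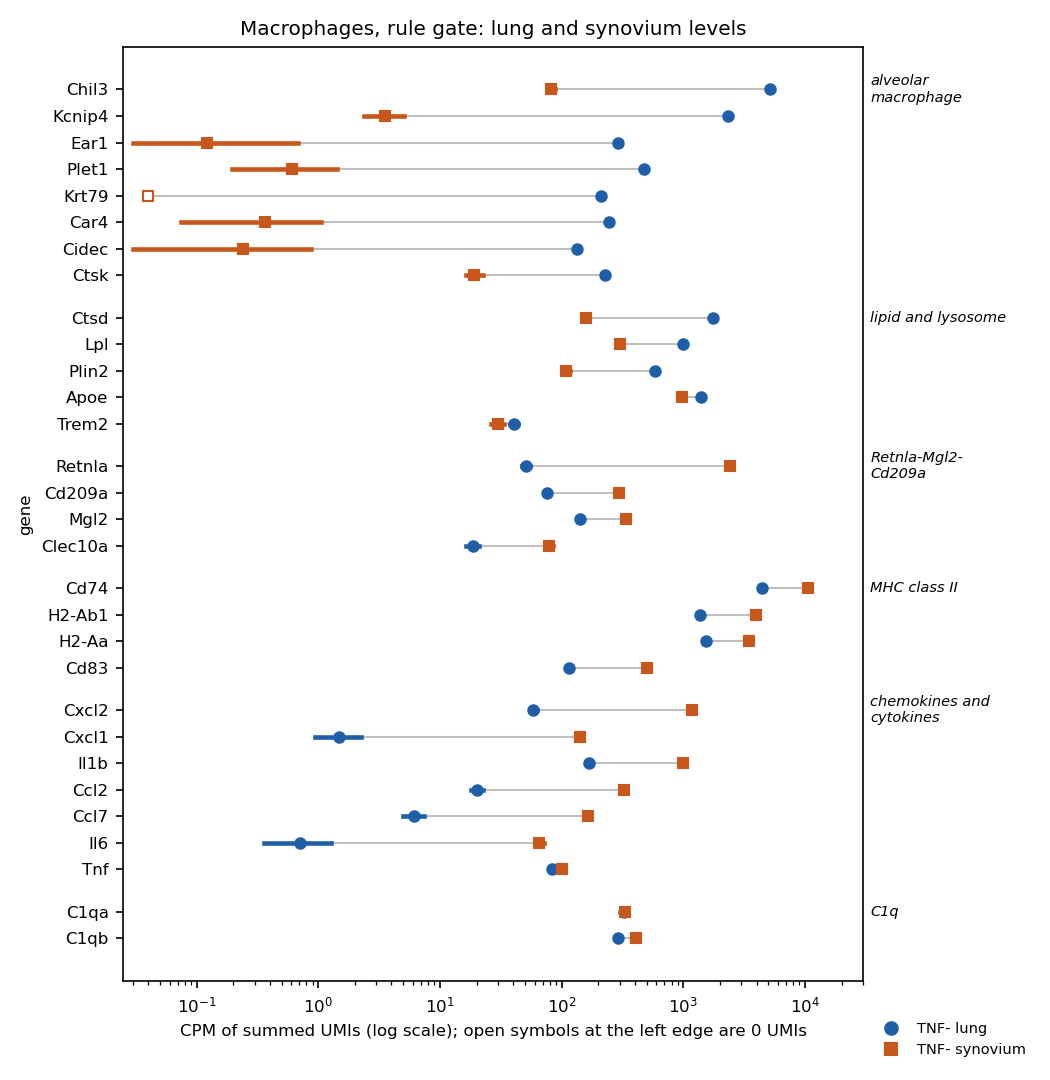
CPM on a log scale of 30 macrophage genes under the rule gate, with lung as circles, synovium as squares, 95% counting intervals as bars and an open symbol for 0 UMIs. Chil3 lay at 5137 CPM in lung against 82.4 CPM in synovium, Retnla at 51.0 against 2423 CPM, and C1qa at 327 against 332 CPM.

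Most of a list of immediate-early and heat shock genes were past 2-fold higher in synovium in each class of the TNF- pair. Immediate-early genes are switched on within minutes of a stimulus, and many encode transcription factors. The 25 genes had 24 past 2-fold higher in synovium and none higher in lung in the stricter endothelium, beside the 11.6% of all genes on that side. In fibroblasts 22 were higher in synovium and 1 in lung, beside 15%, and in macrophages 14 and 0, beside 9.23%. In T cells, with 906 lung and 100 synovial barcodes, 13 of 24 measured were higher in synovium and 1 in lung, beside 26.7% of 10487 genes past 2-fold higher in lung and 5.76% higher in synovium. The list summed to 4776 CPM in lung and 28079 CPM in synovium for endothelium. The TNF+ pair had 24 of 25 higher in synovium and 0 in lung in endothelium, and 20 and 0 in fibroblasts. In TNF+ macrophages the list was divided, with 7 higher in synovium and 5 in lung and a median log2 ratio of -0.30.

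Fos, a subunit of the AP-1 factor, was at 37.2 CPM in lung and 2049 CPM in synovium in endothelium. The same gene was at 189 and 2993 CPM in fibroblasts, 520 and 1231 CPM in macrophages and 157 and 523 CPM in T cells. Atf3, a stress-induced factor, was at 15.2 and 1185 CPM in endothelium and 131 and 576 CPM in macrophages. Egr1, a zinc finger factor, was at 44.8 and 2515 CPM in endothelium, and in T cells it was within 2-fold at 86.8 and 112 CPM. Macrophage-gate barcodes with at least 2 UMIs of Ly6c2 and Plac8 and no C1q, 379 in lung and 150 in synovium, had Fos at 707 and 726 CPM. Their log2 ratio for Fos was -0.04, in a set where 1800 of 9224 genes (19.5%) were higher in lung and 609 (6.6%) in synovium.

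The promoters of these genes were searched for known elements of stimulus response, though no stimulus was measured in these data. Matched to RefSeq sequences of build GRCm38.p6, 19 of the 25 list genes had a promoter window. The 250 bases upstream of the start are given 5' to 3' in gene orientation, for Dusp1 (chr17:26508473-26508722, minus strand), Hspa1a (chr17:34972157-34972406, minus strand) and Zfp36 (chr7:28379229-28379478, minus strand). They are shown because each holds a different element, in capitals: the cyclic AMP element TGACGTCA in Dusp1, the paired heat shock unit GAANNTTC in Hspa1a and a CArG box in Zfp36.
Dusp1: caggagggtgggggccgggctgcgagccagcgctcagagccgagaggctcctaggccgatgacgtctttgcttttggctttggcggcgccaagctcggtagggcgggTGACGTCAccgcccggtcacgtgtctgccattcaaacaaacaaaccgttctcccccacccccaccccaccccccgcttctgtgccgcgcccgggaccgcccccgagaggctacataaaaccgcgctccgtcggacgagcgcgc
Hspa1a: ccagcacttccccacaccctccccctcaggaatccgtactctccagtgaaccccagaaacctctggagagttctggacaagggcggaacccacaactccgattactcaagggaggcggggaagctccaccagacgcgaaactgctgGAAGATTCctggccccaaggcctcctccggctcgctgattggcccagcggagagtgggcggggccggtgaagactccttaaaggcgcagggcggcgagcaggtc
Zfp36: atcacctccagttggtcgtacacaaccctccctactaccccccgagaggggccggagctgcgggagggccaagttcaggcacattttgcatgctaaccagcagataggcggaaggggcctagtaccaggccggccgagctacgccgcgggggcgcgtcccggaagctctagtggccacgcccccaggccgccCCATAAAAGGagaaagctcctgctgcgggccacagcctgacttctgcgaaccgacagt

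The elements were searched for on both strands. The cyclic AMP element was in 2 of the 19 windows and in 1.55% of 32851 promoter windows, the heat shock unit in 4 and 6.69%, and the CArG box in 1 and 1.47%. The AP-1 site TGANTCA was in 0 of the 19 and in 6.75% of all windows. A match is a description of the letters and no evidence of binding. Dusp1, a phosphatase that shuts off MAP kinases, was at 123 and 688 CPM in endothelium, 234 and 438 CPM in fibroblasts, 312 and 804 CPM in macrophages and 117 and 380 CPM in T cells. Hspa1a, an inducible HSP70, was at 9.43 and 716 CPM in endothelium and 51.1 and 213 CPM in fibroblasts. Reads that map to both Hspa1a and its near-identical copy Hspa1b are discarded in counting, so its own level is uncertain. Zfp36, which destabilises cytokine transcripts, was at 61.0 and 1256 CPM in endothelium and 419 and 975 CPM in macrophages.

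**Figure D5:**
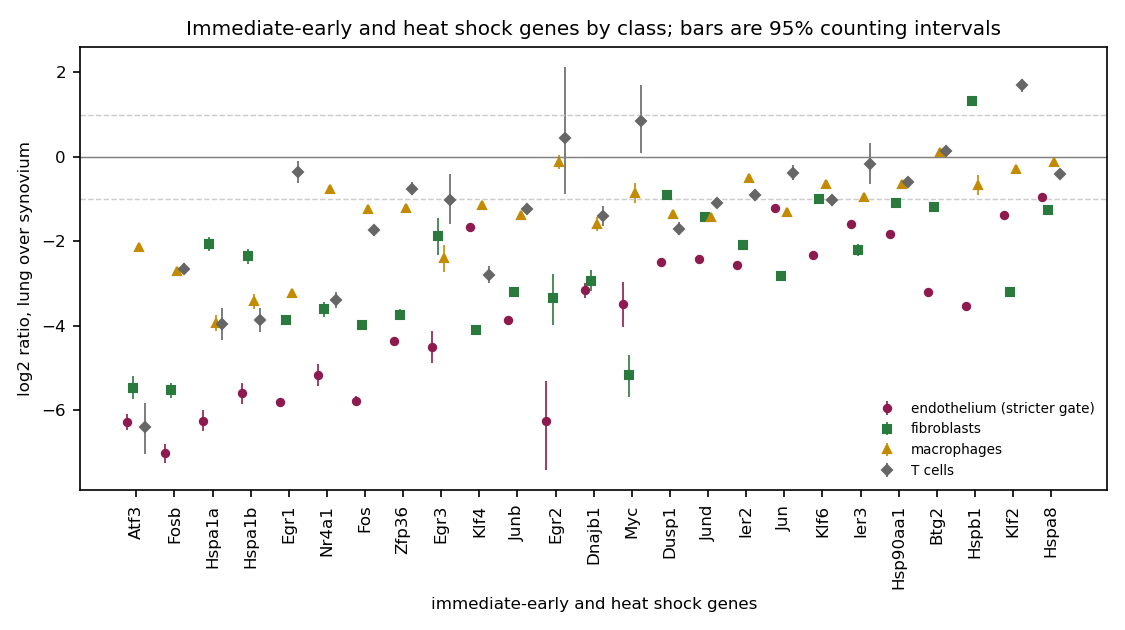
Log2 ratio, lung over synovium, of 25 immediate-early and heat shock genes in 4 classes, with bars as 95% counting intervals and dashed lines at 2-fold. In endothelium 24 of 25 genes lay below -1, in fibroblasts 22, in macrophages 14 and in T cells 13 of 24.

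Metallothioneins, small proteins that bind zinc and copper, were higher in synovium in all 4 classes. Mt1 was at 5.32 CPM in lung and 791 CPM in synovium in endothelium, 81.1 and 3650 CPM in fibroblasts, 290 and 1883 CPM in macrophages and 7.55 and 175 CPM in T cells. Mt2 was at 0.696 and 433 CPM, 48.9 and 1672 CPM, 20.5 and 534 CPM, and 1.03 and 31.4 CPM in those classes. The Mt2 window (chr8:94172368-94172617, plus strand) holds the AP-1 site TGANTCA, in capitals, and is shown for that element.
Mt2: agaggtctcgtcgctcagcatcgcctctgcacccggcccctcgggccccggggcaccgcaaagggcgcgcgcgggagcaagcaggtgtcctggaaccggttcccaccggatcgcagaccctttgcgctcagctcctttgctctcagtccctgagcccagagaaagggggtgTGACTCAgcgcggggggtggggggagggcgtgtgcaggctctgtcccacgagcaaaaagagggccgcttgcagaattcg
That site was in 2 of 11 windows of the metallothionein and oxidative defence list and in 6.75% of all windows. Beside it, only the cyclic AMP element, the heat shock unit and the CArG box were searched for, so other elements may be present unmarked. The list as a whole had 7 of 15 members higher in synovium and 1 in lung in endothelium, 6 and 3 of 15 in fibroblasts, and 7 and 3 of 14 in macrophages. Over all genes the synovial shares were 11.6%, 15% and 9.23% and the lung shares 25.3%, 23.9% and 28.5%. The TNF+ counts were 9 and 0 of 13, 7 and 2 of 14, and 11 and 1 of 14.

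Other shared lists were mixed, and their counts are to be read beside those same shares over all genes. Of 12 glucocorticoid response genes, 9 were past 2-fold higher in synovium and 0 in lung in endothelium, 6 and 1 in fibroblasts and 5 and 3 in macrophages. The TNF+ pair gave 9 and 0, 6 and 2, and 3 and 2 of 12. Cdkn1a, the cell cycle inhibitor p21 and a member of that list, was at 105 and 992 CPM in endothelium and 101 and 489 CPM in macrophages. Hypoxia and glycolysis genes were higher in synovium for 5 of 15 and in lung for 1 in endothelium, for 3 of 16 and 2 in fibroblasts and for 3 of 17 and 4 in macrophages. The TNF+ counts were 6 of 14 and 1, 8 of 16 and 2, and 13 of 17 and 0. Of 14 interferon genes, 5 were higher in lung and 0 in synovium in fibroblasts, 3 and 5 in endothelium and 3 and 1 in macrophages. The TNF+ counts for lung and synovium were 8 and 0 of 12 in fibroblasts, 2 and 9 of 14 in endothelium and 7 and 0 of 14 in macrophages. Circadian clock genes were higher in synovium for 8 of 15 and in lung for 1 in endothelium, for 4 of 16 and 6 in fibroblasts and for 2 of 16 and 3 in macrophages. The TNF+ pair gave 5 of 14 and 0, 3 of 15 and 4, and 4 of 16 and 2. The labels used here give no time of day at which tissue was taken.

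Under the original gates, genes that passed 2-fold the same way in all 3 classes were headed by transcripts of other cells. In synovium, 69.4% of the UMIs in that endothelial gate came from barcodes that also passed the fibroblast gate. Synovial endothelium and fibroblasts were therefore not separate classes here. The 10 on the lung side included Sftpc, Scgb1a1, Sftpa1 and Hba-a1, which mark alveolar type 2, airway and red blood cells, and the 10 on the synovial side included Myoc, Thbs4 and Angptl1. A synovial T cell averaged 0.14 Myoc UMIs and a lung T cell 8.42 Sftpc UMIs. Shroom3, an actin regulator, was on the lung side with log2 ratios of 6.76, 7.29 and 5.36 in endothelium, fibroblasts and macrophages. Under the stricter gates these were 6.06, 7.14 and 5.91. Ebf3, a transcription factor of mesenchyme, was on the synovial side with -7.75, -6.74 and -7.33, and with -7.77, -7.21 and -5.87 under the stricter gates. Under the original gates it was at 0.571, 0.937 and 0.130 CPM in lung and 123, 100 and 20.9 CPM in synovium. The stricter fibroblast ratio is a lower bound, with no UMI in lung. An Ebf3 UMI was in 16.6% of synovial macrophages, 2.2% when thinned as described below, and in 0 of 100 synovial T cells. The part of other cells in its macrophage ratio was not tested. Saa3, also among the 10 on the lung side, had an endothelial ratio of 6.97 under the original gate and -0.038 under the stricter gate.

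The share of cells with a UMI of a leading gene was compared with the share in T cells of the same library. Cells were thinned to 1000 UMIs each, leaving out 124 lung and 16 synovial endothelial barcodes, 2 and 18 fibroblast barcodes and 1 and 0 macrophage barcodes below that depth. A Fabp4 UMI was then found in 88.3% [85.5, 90.6] of synovial endothelium and 2% of synovial T cells, and in 1.03% [0.629, 1.58] of lung endothelium. Without thinning these shares were 91.6%, 10% and 2.46%. Hpgd was in 76.2% [74.2, 78.1] of lung endothelium, 1.66% of lung T cells and 0 of 647 synovial endothelial barcodes. Without thinning its shares were 90.8%, 12.3% and 0.603%. Tcf21 was in 26.6% [22.4, 31.3] of lung fibroblasts and 0.442% of lung T cells, and unthinned in 64.5% and 1.43%. Myoc was in 50.8% [49.2, 52.5] of synovial fibroblasts and 0 of 100 synovial T cells, and unthinned in 83.8% and 14%. Retnla was in 19.3% [15.6, 23.4] of synovial macrophages, 2% of synovial T cells and 0.709% of lung macrophages, and unthinned in 26.1%, 9% and 2.13%. T cell medians were 9512 UMIs in lung and 10840.5 in synovium, against 14522.5 and 15474 in fibroblasts and 15277 and 17014 in macrophages.

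The TNF+ pair gave a further view of the same tissues. Its lung library held 209 endothelial, 44 fibroblast and 5134 macrophage barcodes. Of the genes called in the TNF- pair and measured in the TNF+ pair, 68.5% of the lung calls and 71.0% of the synovial calls in the stricter endothelium were past 2-fold the same way. Of all genes measured in both pairs, 29.3% and 12.6% were past 2-fold on those sides in the TNF+ pair. In fibroblasts the shares were 67.3% and 53.4%, beside 32.7% and 10.2%. In macrophages they were 68.5% and 44.7%, beside 35.8% and 7.84%, and 163 of 1038 synovial macrophage calls were past 2-fold the other way. All 12 synovial tendon and cartilage calls that could be read in the TNF+ pair lay on the same side, while the 1 lung call, Scx, passed 2-fold the other way. The side was also kept by 11 of 14 alveolar fibroblast calls and 18 of 21 alveolar macrophage calls. For MHC class II this held for 1 of 8 synovial calls.

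A narrower endothelial gate, on Gpihbp1, gave the same sides for the leading genes listed here. Endothelial-gate barcodes with at least 2 Gpihbp1 UMIs, 1345 in lung and 493 in synovium, had 2933 of 11994 genes (24.5%) higher in lung and 1426 (11.9%) in synovium. In them Fabp4 was at 27.6 and 6801 CPM, Timp4 at 2.09 and 988 CPM, Hpgd at 2941 and 4.32 CPM and Fos at 31.5 and 2023 CPM. Endothelial-gate barcodes with at least 2 Vwf UMIs, 602 and 68, had 2944 of 10456 genes (28.2%) higher in lung and 802 (7.67%) in synovium. Of the original-gate calls compared there, 1620 of 2922 lung calls (55.4%) and 537 of 895 synovial calls (60%) were repeated. With Gpihbp1 these shares were 61.9% and 72.1%.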

How the data were processed

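The authors deposited whole-number UMI counts per gene and barcode, not normalized, made with Cell Ranger 7.0.1 and the 10x mouse reference of build mm10 (GRCm38), per the labels and the study's methods. The matrices list 32285 genes, of which 32158 were found in GENCODE vM21. Cell Ranger discards reads that map to several genes. Counts were summed per class and library with Python 3.11.15, numpy 2.4.6, pandas 2.3.3 and scipy 1.17.1. CPM has exact Poisson intervals, shares Clopper-Pearson intervals, and ratios conditional binomial intervals. The lung and synovium libraries shared 21 barcode sequences. No doublet caller was run, and leaving out the 5% of barcodes with most UMIs was tried instead. The calculation was tested on simulated counts. Members, lists and tests were chosen with earlier results of these data known. Named genes were the 12 per class and side with the largest interval bound nearest 0, at 50 CPM or more in the higher tissue, examples from the lists, and up to 10 per side past 2-fold in all 3 classes. The split of the Pecam1 barcodes and 2 further endothelial gates were added after the data were seen.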

Additional observations from a re-analysis of the deposited data

Results flagged for a closer look

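For 14 of the genes singled out by the naming rule or described with values, the log2 ratio of lung over synovium passed 2-fold in the TNF- pair and passed it in the opposite direction in the TNF+ pair, with 1 library on each side of each pair. Over all genes measured in both pairs, 22 lung and 31 synovial calls did so in the stricter endothelium, 75 and 67 in fibroblasts and 88 and 163 in macrophages. The difference between the pairs was not tested for any of them, and the first value below is of the TNF- pair.

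In endothelium under the stricter gate, Vwf, the von Willebrand factor gene, went from 2.80 to -5.35. Lyve1, a hyaluronan receptor, went from 3.45 to -2.52, and Ifitm1, an interferon-induced membrane protein gene, from 11.8 CPM in lung and 5.91 CPM in synovium, just past 2-fold, to a ratio of -2.78. The TNF+ lung had 209 endothelial barcodes under the original gate. In fibroblasts Adm, adrenomedullin, went from -1.88 to 1.22, the basement membrane collagen gene Col15a1 from -2.62 to 1.19 and Scx from 1.03 to -2.35.

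In macrophages Vegfa went from 2.83 to -5.34, Ctsk from 3.56 to -3.08 and the acute-phase gene Saa3 from 5.56 to -2.30. Cd209a went from -1.97 to 2.19. Cd226, an adhesion receptor, went from -2.96 to 3.89, and Cd209d, a lectin gene with close copies, from -2.88 to 1.18. The clock gene Npas2 went from -4.65 to 1.40, and C3 from -1.05 to 1.08. For C3 the TNF- ratio was 0.44 under the stricter macrophage gate, so its TNF- direction rested on the gate.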

How the results depend on the processing

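No paired analysis was possible because each group has 1 library, and no replicate could be left out for the same reason. Counts of genes past 2-fold moved by over 1.5 times under these settings, with the cause not tested unless the setting itself gives it. Centring on the median changed the lung counts to 2286 in endothelium, 2009 in fibroblasts and 1864 in macrophages, and the synovial macrophage count to 1933. Requiring 200 UMIs tests fewer genes and gave 1647 in synovial endothelium, 1369 in synovial fibroblasts, and 2382 and 674 in lung and synovial macrophages. Requiring 1 UMI tests more genes and gave 6118 and 6160 in lung and synovial endothelium, 10494 in lung fibroblasts and 4419 in synovial macrophages. Stricter gates, which hold fewer barcodes, gave 1417 in synovial endothelium and 686 in synovial macrophages. A pair of endothelial gates chosen after seeing the data gave 1716 synovial calls without barcodes that pass the fibroblast gate and 1596 with at least 1 Cdh5 UMI, against 2774.

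Many gene ratios moved in size by more than their 95% counting interval. Of 389, 276 did so when centred, 251 under the study's limits on genes per cell, 250 under stricter gates, 187 with cells weighted equally and 139 without the 5% of barcodes with most UMIs. Stricter gates reversed 5, namely Dkk2 (0.072), Kdr (-0.077), Maf (0.38) and Saa3 (-0.038) in endothelium and C3 (0.44) in macrophages. The study's limits on genes per cell reversed 3, namely Ifit3 (-0.025) in fibroblasts and Lpl (-0.19) and Mrc1 (-0.39) in macrophages. Weighting cells equally, leaving mitochondrial and ribosomal genes out of the total, leaving out the 5% of barcodes with most UMIs and centring reversed none of the called ratios. Depth limits most the 43 lung barcodes with Pi16 and Dpp4, the 68 synovial barcodes with Vwf and the 44 fibroblasts of the TNF+ lung, where a gene with no UMI may lie below the floor.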
